A study of Mus musculus with 24 samples.

Results

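The genes described here encode the receptors for the main fast transmitters of the spinal cord: glutamate, which excites, and GABA and glycine, which inhibit. They were taken by symbol: the AMPA (Gria), kainate (Grik), NMDA (Grin) and metabotropic (Grm) glutamate receptors, the GABA-A (Gabra to Gabrr) and GABA-B (Gabbr) receptors and the glycine receptors (Glra, Glrb). A symbol was kept where at least 10 reads were counted in at least 3 libraries of dorsal root ganglia (DRG) or spinal cord. Of 22609 genes counted, 50 had such a symbol and 42 met the minimum: 4 AMPA, 5 kainate, 6 NMDA, 7 metabotropic glutamate, 15 GABA-A, 2 GABA-B and 3 glycine receptor genes. Of the 42, 35 reached it in both tissues, 6 in cord but not in DRG (among them Gabrb1, Gabrg3, Glra1, Grin2b and Grm2), and Gabrr1 in DRG but not in cord. The 6 were let in by the cord libraries alone, so they had to read higher there. The 8 symbols left out were Gabra6, Gabrp, Gabrq, Gabrr3, Glra3, Glra4, Grin2a and Grm6. Closest to the minimum lay Gabrr1, with 10 or more counts in 4 libraries, and Gabrg3, with 5, on the inside, and Gabrr3, with 2, on the outside.

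Messenger RNA was sequenced from punch biopsies of the hind paw, from DRG of lumbar levels L3 to L5 on the injected side and from the lumbar cord. All came from C57 males between 8 and 12 weeks old. The mice had received 10 µg per injection, into the sole of the hind paw, of an antibody that activates LTβR, the lymphotoxin-beta receptor of the tumour necrosis factor receptor family, or of control IgG. DRG and paw each had 3 groups of 3 libraries (IgG, taken 1 day after injection; agonist day 1, after 1 injection; agonist day 6, after 2 injections), and cord had agonist day 1 and day 6. Cord libraries from IgG mice were not analysed here, so cord values compare day 6 with day 1 and not agonist with control. Day 6 differed from day 1 in both time and number of injections, and the labels differ on whether its days run from the first or the last injection. Whole tissues were sequenced, so fewer cells of a type and less RNA per cell cannot be told apart.

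AMPA, kainate and NMDA receptors are ion channels of several glutamate-binding subunits, and NMDA receptors need the GluN1 subunit (Grin1) together with GluN2 or GluN3 subunits. Metabotropic receptors act through G proteins: Grm5 belongs to the group that raises intracellular calcium, Grm2 and Grm3 and the group of Grm4, Grm6, Grm7 and Grm8 lower cyclic AMP, and Grm4, Grm7 and Grm8 sit largely on nerve terminals. GABA-A and glycine receptors are chloride channels, GABA-A receptors most often of alpha, beta and gamma subunits, and the GABA-B receptor is a pair of G protein-coupled subunits. In this pathway the sensory neuron bodies lie in the DRG and release glutamate in the dorsal horn. Their terminals there carry receptors made from the DRG transcripts, while the receptors of cord neurons and glia are made from cord transcripts.

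Each DRG library held between 21562694 and 34244912 reads assigned to a gene, and each cord library between 15685843 and 26285770. The tissues carried their own markers: the 12 sensory neuron markers summed to between 5773 and 6999 CPM (read counts relative to library size, scaled by edgeR's TMM factors over the DRG and cord libraries) in DRG and to between 121 and 167 CPM in cord, where Trpv1, Mrgprd and Prdm12 had fewer than 10 counts in every library. The 10 astrocyte markers summed to 282 to 346 CPM in DRG and 5352 to 6715 CPM in cord, and the 14 pan-neuronal markers to 20388 to 22933 CPM in DRG and 11688 to 17270 CPM in cord. Within a tissue, Schwann cell markers ran from 832 to 11831 CPM between cord libraries and skeletal muscle markers from 91.9 to 7029 CPM between DRG libraries.

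The receptor genes differed far more between cord and DRG than between any groups of one tissue. On day 1, 30 of 41 tested were higher in cord and 6 lower (edgeR quasi-likelihood test, Benjamini-Hochberg adjusted p under 0.05 over 16044 genes), with a median log2 fold change of 1.85 against -0.0023 for all genes. On day 6, 30 were higher and 5 lower, with a median of 1.57 against 0.02 for all genes. Of all genes tested, 73% passed on day 1 (36.6% higher and 36.4% lower) and 69.9% on day 6 (35.6% higher and 34.3% lower). In both comparisons 29 members were higher and 5 were lower (Grik1, Grik4, Grm7, Grm8 and Gabbr2). Among the 35 members that reached the minimum in both tissues, 24 were higher on each day, and 6 and 5 were lower. The median log2 fold change of these 35 was smaller, at 1.03 on day 1 and 0.93 on day 6. The 14 pan-neuronal markers had the opposite balance on day 1, with 4 higher, 9 lower and a median of -0.71, while 10 of 10 astrocyte markers were higher, with a median of 4.43. The part of neuron and glia content in the receptor differences was not tested. The labels give no batch, so tissue cannot be told apart from any other difference between the DRG and the cord libraries.

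**Figure D1:**
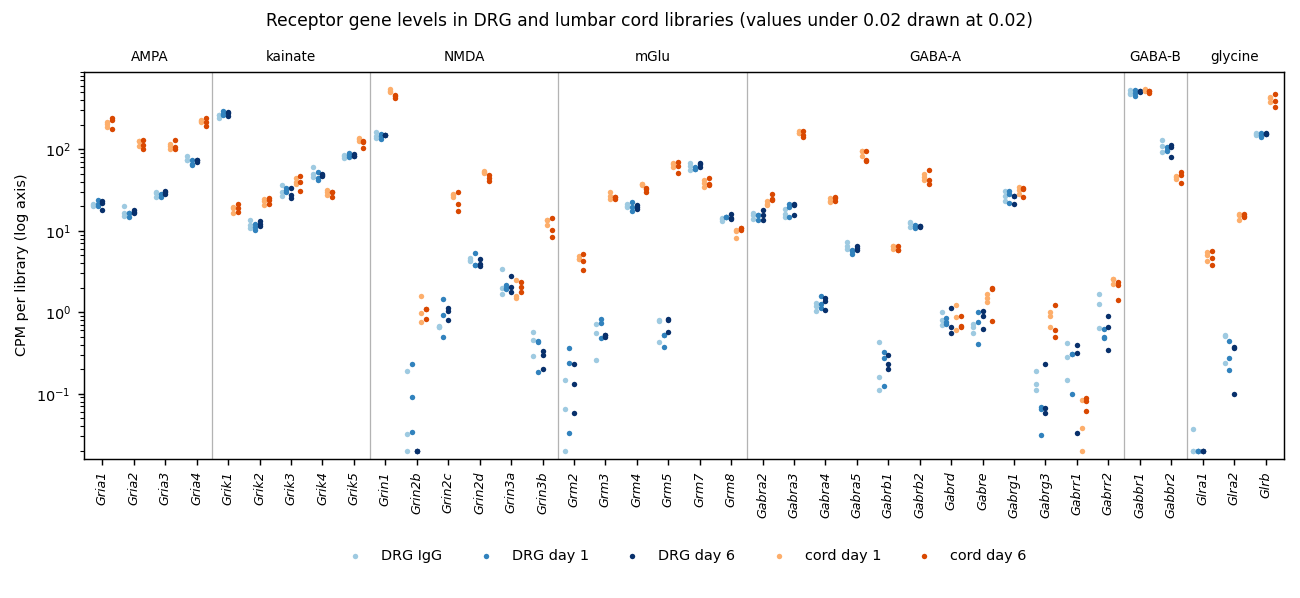
CPM of 38 receptor genes in each of 9 DRG (blue) and 6 cord (orange) libraries, on a log axis, grouped by receptor family. In most genes the cord libraries sit above the DRG libraries, while Grik1 shows the reverse, between 245 and 294 CPM in DRG and between 16.4 and 21.5 CPM in cord.

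All 4 AMPA receptor genes were higher in cord on both days. Gria1, which encodes GluA1, had 19.9, 21.4 and 24.1 CPM in the DRG day-1 libraries and 204, 218 and 190.3 CPM in the cord day-1 libraries. The groups did not overlap, and the level in cord was 9.29 times that in DRG (3.22 ± 0.13 (SE) on the log2 scale, edgeR adjusted p = 1.38e-11), and 10.2 times on day 6. Gria2 encodes GluA2, the subunit that keeps most AMPA channels from passing calcium. It had 16.6, 16.7 and 14.7 CPM in DRG and 127, 126 and 110.0 CPM in cord on day 1, a 7.48-fold difference, and 6.65-fold on day 6. Gria4 (GluA4) differed less, at 66.2, 73.5 and 63.6 CPM in DRG against 231, 214 and 224 CPM in cord on day 1, or 3.26-fold. Gria3 was 3.97-fold higher.

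The RefSeq start-site windows of Gria2 and Glra2, the gene of the glycine receptor alpha 2 subunit, are shown because both genes were higher in cord and hold the same short motif. The windows run 5′ to 3′ on the gene's strand over the 250 bases before the start site, on build GRCm38.p6. Capitals mark GGACAGC, which is the right arm of RE1, the element bound by REST, a repressor of neuronal genes in other cells; in both windows it lies on the opposite strand and reads GCTGTCC.
Gria2, chr3:80802836-80803085, minus strand: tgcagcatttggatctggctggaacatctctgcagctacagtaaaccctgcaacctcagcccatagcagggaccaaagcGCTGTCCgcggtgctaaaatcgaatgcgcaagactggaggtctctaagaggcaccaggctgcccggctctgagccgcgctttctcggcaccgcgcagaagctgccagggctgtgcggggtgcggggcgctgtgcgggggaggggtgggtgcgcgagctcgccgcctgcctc
Glra2, chrX:165327394-165327643, minus strand: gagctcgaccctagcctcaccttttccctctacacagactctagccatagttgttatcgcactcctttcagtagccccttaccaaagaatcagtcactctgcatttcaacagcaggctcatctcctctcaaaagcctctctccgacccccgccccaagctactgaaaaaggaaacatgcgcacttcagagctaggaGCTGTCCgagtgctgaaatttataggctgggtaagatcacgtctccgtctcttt
The first marked base lies 171 bases before the start site in Gria2 and 54 in Glra2. The RefSeq table held 36 windows for 29 of the 42 members, and GGACAGC, searched on both strands over 250 bases before to 50 after the start, was in 4 of the 36 (11.1%) against 6.56% of 32851 windows of all genes. The other two were those of Grm2 and Glrb. All 4 genes were higher in cord on both days, as were most members. The left arm of RE1, CAGCACC, was in the Grm2 window alone among members (7.14% of all windows). The TATA box sequence TATAAA was in 5 member windows (13.9% against 13.6%), those of Gabra3, Gabrb2, Glra2 and Grin3b. These motifs too were searched on both strands. In the Glra2 window shown, the TATA letters lie on the opposite strand, as tttata. Only exact matches were counted, so an arm with a changed letter, in Gria2 or elsewhere, would be missed. A match is a description of these letters and was not tied to binding here.

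Kainate receptor genes ran in both directions. Grik1 encodes GluK1, the kainate subunit typical of small sensory neurons, and was the member most in favour of DRG. It had 267, 269 and 294 CPM in the DRG day-1 libraries, 281, 255 and 286 in the DRG day-6 libraries and 261, 245 and 261 in the DRG IgG libraries. In cord it had 19.4, 19.2 and 16.4 CPM on day 1 and 19.3, 17.1 and 21.5 CPM on day 6. The lowest DRG library lay above the highest cord library by a wide margin, and the cord level was 0.0657 times the DRG level on day 1 (log2 fold change -3.93 ± 0.09, edgeR adjusted p = 3.30e-14) and 0.0697 times on day 6. Grik4, which encodes GluK4, was also lower in cord, at 0.64 times the DRG level on day 1 and 0.591 times on day 6. The largest difference the other way was that of Grik2 (GluK2), at 11.1, 12.0 and 10.3 CPM in DRG and 24.6, 23.5 and 20.8 CPM in cord on day 1, or 2.04-fold. Grik5 (GluK5) had 80.2, 86.2 and 90.6 CPM in DRG against 127, 137 and 135 CPM in cord, 1.54-fold. Grik3 passed on day 6 (log2 fold change 0.42 ± 0.15, edgeR adjusted p = 0.0215) and not on day 1 (0.34 ± 0.15, adjusted p = 0.0512). The day-6 call was lost without DRG day-6 library 1 (adjusted p = 0.0928) or 2 (0.0675), without cord day-6 library 1 (0.0570) or 3 (0.0971), and when only the groups compared were fitted (0.0639). On day 1 Grik3 passed with DESeq2 (adjusted p = 0.0402) and limma voom (0.00857).

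Of the 6 NMDA receptor genes, 5 were higher in cord on both days. Grin1, the obligate subunit, had 132, 147 and 156 CPM in DRG and 526, 510.5 and 544 CPM in cord on day 1, a 3.60-fold difference (log2 fold change 1.85 ± 0.07, edgeR adjusted p = 5.03e-12), and a 2.97-fold one on day 6. Its partners differed more. Grin2d had 3.81, 3.81 and 5.39 CPM in DRG and 52.1, 50.9 and 54.8 CPM in cord, 12.0-fold, and Grin2c was 28.8-fold higher. Grin3b, known from motor neurons, had 0.427, 0.185 and 0.446 CPM in DRG and 13.6, 11.8 and 13.7 CPM in cord, the largest fold of a family member that reached the minimum in both tissues, at 36.4 (95% interval 23.7 to 56.0). Of the 7 motor neuron markers 5 were higher in cord on day 1 and 2 lower, and they summed to more in DRG. Their sums were 831 to 980 CPM in DRG and 233 to 399 CPM in cord. Chat, Slc18a3, Mnx1 and Lhx3 had fewer than 10 counts in every DRG library. The part of motor neurons in the Grin3b difference was not tested. Grin3a did not pass on either day, with 1.94, 2.18 and 1.99 CPM in DRG and 1.52, 1.57 and 2.46 CPM in cord on day 1 and a 95% interval of 0.593 to 1.36 for the cord-to-DRG ratio. Grin2b was let in by the cord libraries and was low in cord too, at 0.76, 0.97 and 1.58 CPM on day 1. Grin2b had 7, 3 and 1 counts in the DRG day-1 libraries and was 8.82-fold higher in cord on day 1 (95% interval 3.49 to 22.3). In the DRG day-6 libraries it had 0 counts, so with a floor of 3 counts over the group the day-6 difference was at least 31.9-fold. The size of this difference therefore rests on very few DRG counts and was not alike on the days.

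Of the 7 metabotropic genes 5 were higher and 2 lower in cord on each day. Grm5, which raises calcium, stood far above DRG. It had 0.526, 0.523 and 0.378 CPM in DRG and 68.0, 66.0 and 60.4 CPM in cord on day 1, and 0.576, 0.796 and 0.828 CPM against 69.4, 50.6 and 63.2 CPM on day 6. The cord level was 133 times the DRG level on day 1 (95% interval 100.9 to 176, edgeR adjusted p = 1.02e-13) and 82.8 times on day 6 (63.7 to 108). Grm3, which astrocytes also express, was 39.0-fold higher on day 1 and Grm2 20.8-fold. In the group found on terminals, Grm4 was 1.84-fold higher in cord, but Grm7 and Grm8 were lower. Grm7 had 56.9, 57.4 and 61.2 CPM in DRG and 42.2, 38.7 and 34.6 CPM in cord on day 1, 0.653 times the DRG level, and 0.607 times on day 6. Grm8 had 14.6, 14.9 and 14.7 CPM in DRG and 10.2, 9.96 and 8.07 CPM in cord, 0.635 times (edgeR adjusted p = 1.77e-05).

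Among GABA-A receptor genes 11 of 14 tested were higher in cord on day 1, with 1 lower, and 10 were higher on day 6, with 0 lower at the threshold and 11 with an unadjusted p under 0.05. Among the alpha subunits, Gabra5, whose subunit is common in extrasynaptic receptors, had 5.65, 5.75 and 5.18 CPM in DRG and 95.3, 83.1 and 94.5 CPM in cord on day 1, 16.3-fold (95% interval 13.8 to 19.2), and 12.97-fold on day 6. Gabra4 had 1.12, 1.57 and 1.27 CPM in DRG and 22.5, 25.6 and 23.4 CPM in cord, 17.8-fold. Gabra3, the GABA-A gene with the highest level per kilobase of transcript in cord, had 21.4, 14.9 and 19.8 CPM in DRG and 169, 159 and 158 CPM in cord, 8.59-fold.

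Gabrb1 had the largest fold of the family, 25.7, from 0.329, 0.123 and 0.275 CPM to 6.48, 6.05 and 6.49 CPM, and was let in by the cord libraries. Gabrb2 was 3.98-fold higher. Gabrd and Gabrg1 did not pass on either day, though Gabrg1 did on day 6 with upper-quartile scaling (adjusted p = 0.0369) and without cord library 3 (0.0242). Gabre passed on day 1 (2.02-fold, adjusted p = 0.0209; adjusted p = 0.0830 without DRG day-1 library 3 and 0.0624 without cord day-1 library 2) and not on day 6 (adjusted p = 0.0531 with edgeR, 0.00713 with limma voom).

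The 2 GABA-B genes, whose proteins must pair to reach the membrane, differed from each other. Gabbr1 had 452, 489 and 535 CPM in DRG and 539, 519.5 and 548 CPM in cord on day 1, and passed neither on day 1 (95% interval of the ratio 0.983 to 1.18) nor on day 6 (0.891 to 1.07). With limma voom it passed on day 1 (log2 fold change 0.12, adjusted p = 0.0417), and without DRG day-1 library 3 (0.19, adjusted p = 0.0158). Gabbr2 had 97.6, 106 and 96.5 CPM in DRG and 45.6, 46.6 and 43.8 CPM in cord, 0.449 times (log2 fold change -1.15 ± 0.14, edgeR adjusted p = 7.56e-06) and 0.459 times on day 6. All 3 glycine receptor genes were higher in cord. Glra1, the adult alpha subunit, had 4.24, 5.57 and 5.04 CPM in cord on day 1 and 0 counts in the DRG day-1 and day-6 libraries. With a floor of 3 counts over the group it was at least 152-fold higher on day 1 and at least 148-fold on day 6, and the members' medians above are the same with Glra1 and Grin2b at their bounds, which lie above them. Glra2 was 48.4-fold higher. Glrb, the shared beta subunit, differed least, with 150, 158 and 140.4 CPM in DRG and 444, 377 and 422 CPM in cord, or 2.75-fold.

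**Figure D2:**
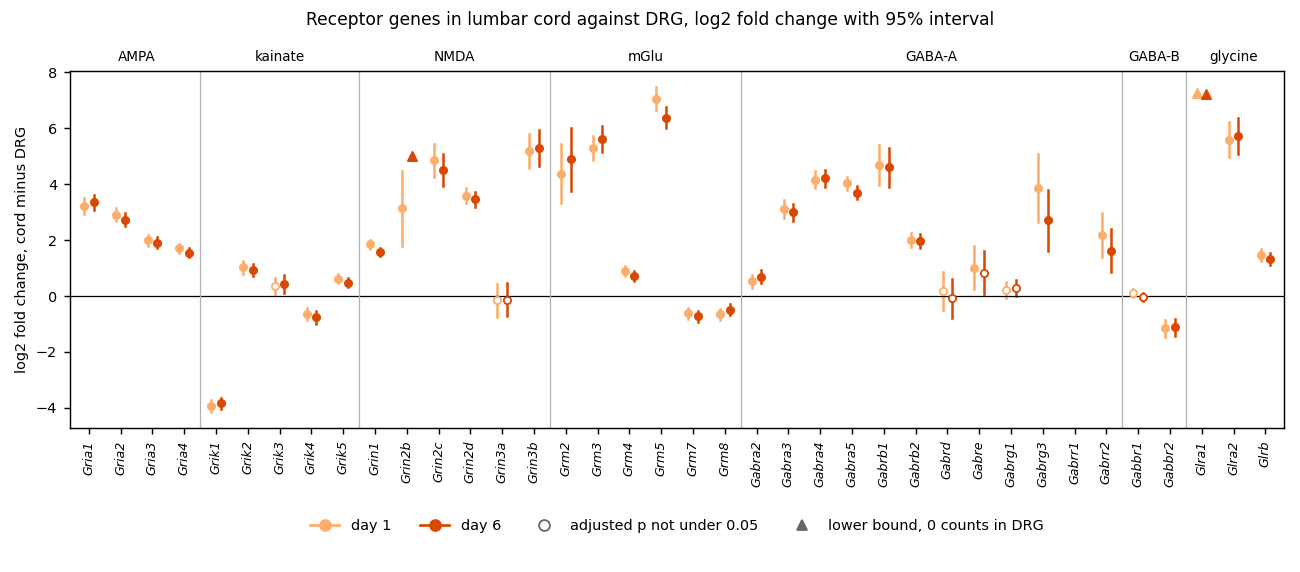
Log2 fold change of cord against DRG with its 95% interval for 38 receptor genes on day 1 (light) and day 6 (dark). Open circles did not pass, triangles are lower bounds for genes with 0 DRG counts, and Gabrr1 was not tested. Grik1 lies at -3.93 and -3.84, and Grm5 lies at 7.06 and 6.37.

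To compare genes with each other, CPM were divided by the length of the longest coding transcript of each gene in kilobases. In DRG the order began with Gabbr1 (96.3 CPM per kb, mean of 9 libraries), Grik1 (73.6), Glrb (50.6) and Grin1 (34.7), and in cord with Glrb (134 CPM per kb, mean of 6 libraries), Grin1 (114) and Gabbr1 (99.8). Grik1 was at 5.15 CPM per kb in cord, 23rd of 42. The same genes stood in these places when the length was that of all exons joined, except that Grik1 was then 26th in cord. Grin1 in cord lay far above the 5 GluN2 and GluN3 genes, which summed to between 15.3 and 20.5 CPM per kb.

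Shares of each family, again per kilobase, showed which subunit led. Grik1 made up 67.7% (range 65.7 to 68.8) of kainate receptor transcript in DRG and 10.5% (8.54 to 11.2) in cord, where Grik5 made up 66.5% (64.1 to 68.4) against 20.7% in DRG. The ranges of the 9 DRG and 6 cord libraries did not overlap for either gene. Of alpha subunit transcript, Gabra3 made up 25.1% (19.7 to 29.1) in DRG and 45.9% (43.1 to 49.5) in cord, and Gabra5 11.5% (9.25 to 14.1) in DRG and 34.4% (29.4 to 36.9) in cord. The ranges of the tissues did not overlap for these genes either.

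In the AMPA family Gria4 made up 54.7% (52.1 to 57.6) in DRG, while in cord Gria4 and Gria1 were close, at 36.6% and 34.1%. With joined exons Gria1 came above Gria4 in cord, so the order of these neighbours depends on the length used. Gria2 made up at most 11.01% of the family in any library, with 6.64% in DRG and 10.4% in cord. Its share is lowered by its length of 10371 bases (10486 with joined exons), against 5192 for Gria3 and 5546 for Gria1. Without length, the cord medians were 211 (Gria1), 120 (Gria2), 109 (Gria3) and 221 CPM (Gria4). In DRG Gria2 was also lowest without length, with a median of 16.6 CPM. Grin2d led the GluN2 and GluN3 genes in both tissues, with 58.7% (50.2 to 63.3) in DRG and 49.8% (41.6 to 55.3) in cord. The rest went to Grin3a (20.02%) and Grin2c (13.9%) in DRG and to Grin2c (28.7%) and Grin3b (20.3%) in cord. Among metabotropic genes Grm7 made up 63.1% (61.5 to 66.7) in DRG. In cord 4 genes lay between 18.3% and 22.7%: Grm7, Grm3, Grm5 and Grm4. Glrb made up at least 94.6% of glycine receptor transcript in every library, with 99.8% in DRG and 95.04% in cord.

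**Figure D3:**
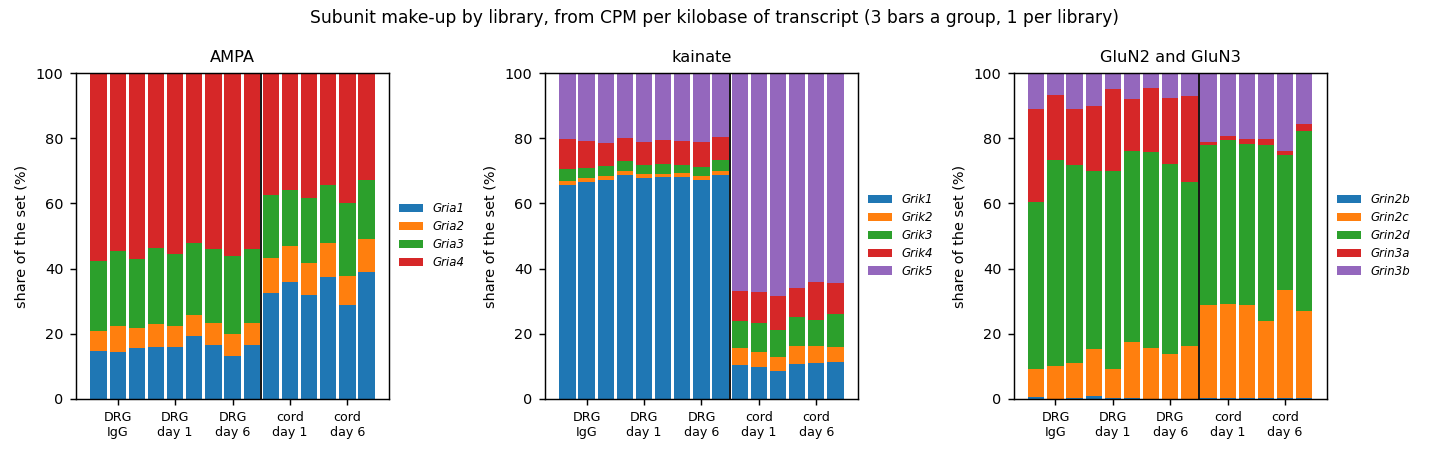
Share of each subunit gene in its set (AMPA, kainate, and GluN2 with GluN3), in percent from CPM per kilobase, in 9 DRG libraries (left of the line) and 6 cord libraries (right). The kainate panel turns from mostly Grik1 in DRG (67.7%) to mostly Grik5 in cord (66.5%).

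Genes that make, release, clear or anchor around these receptors were taken from 4 lists. Between cord and DRG on day 1, of 11 genes of glutamate release and clearance 7 were higher and 3 lower in cord, of 11 genes of GABA and glycine synthesis, release and clearance 9 were higher and 1 lower, of 26 glutamate receptor auxiliary and scaffold genes 21 were higher and 4 lower, and of 10 inhibitory receptor auxiliary and scaffold genes 6 were higher and 4 lower. On day 6 these were 7 and 3, 9 and 0, 19 and 3, and 6 and 4. Of all genes tested, 36.6% were higher and 36.4% lower on day 1, and 35.6% and 34.3% on day 6. Gad1, an enzyme that makes GABA, had 0.493, 0.523 and 0.686 CPM in DRG and 237, 241 and 222 CPM in cord on day 1, or 8.66 ± 0.13 on the log2 scale (edgeR adjusted p = 1.18e-15). The second such enzyme, Gad2, was at 8.76 ± 0.17, the GABA transporter Slc6a11 at 6.81 ± 0.10, the GABA-degrading enzyme Abat at 2.85 ± 0.06 and the amino acid transporter Slc38a1 at 2.78 ± 0.06. Slc17a7, the vesicular glutamate transporter VGLUT1, ran the other way, with 208, 218 and 198 CPM in DRG and 0.0379, 0.121 and 0.0416 CPM in cord (log2 fold change -11.53 ± 0.23).

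In cord, 0 of 41 receptor genes differed between day 6 and day 1 by edgeR, and 0 by DESeq2 and by limma voom. Across all genes 0% were called. At an unadjusted p under 0.05 there were 4 members (9.76%) and 9.70% of all genes, and the members' median log2 fold change was -0.04 against 0.01 for all genes. The 5 members with the smallest p, none of which passed, were Grin1, Grin2d, Gabra2, Grm4 and Grm8. Grin1 had 526, 510.5 and 544 CPM on day 1 and 449, 431 and 471 CPM on day 6, so the groups did not overlap, at a log2 difference of -0.20 ± 0.06 (adjusted p = 0.463, edgeR). Grin2d had 52.1, 50.9 and 54.8 CPM on day 1 and 44.9, 41.1 and 48.7 CPM on day 6, also -0.20 (adjusted p = 0.496). Gabra2 had 23.4, 21.6 and 20.6 CPM on day 1 and 28.2, 23.7 and 24.4 CPM on day 6, 0.24 ± 0.10 (adjusted p = 0.501). Grm4 had 36.5, 37.1 and 37.3 CPM on day 1 and 32.6, 30.0 and 34.0 CPM on day 6 (-0.17, adjusted p = 0.508). Grm8 had 10.2, 9.96 and 8.07 CPM on day 1 and 10.8, 10.8 and 10.3 CPM on day 6 (0.20, adjusted p = 0.594). In the first 4 the whole 95% interval lay on one side of 0, yet each failed the adjustment over 15096 genes.

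By family, the 6 NMDA genes had a median difference of -0.20, with 5 negative, and the other 6 families had medians between -0.06 and 0.03. Of the pan-neuronal markers 0 of 14 passed, 13 were negative and the median was -0.13, with summed levels of 13359 to 15615 CPM on day 1 and 11688 to 17270 CPM on day 6. Day-6 library 2 had the highest pan-neuronal sum of the cord libraries. Of the NMDA genes with a mean of at least 50 counts, Grin1 and Grin2d were lowest there and Grin2c and Grin3b highest. Other markers also differed in sign between the days, with 0 passing: the medians were 1.37 for Schwann cell (8 of 8 positive), 0.86 for meningeal (12 of 12) and 1.30 for skeletal muscle markers (14 of 14), and -0.21 for cord interneuron and projection neuron markers (9 of 11 negative). With the meningeal score or the Schwann cell score (the latter chosen after seeing the data) as a covariate 0 members passed, and the part of the skeletal muscle and interneuron markers was not tested. With the pan-neuronal score as a covariate Grin1 (-0.24, adjusted p = 0.0288) and Grik5 (-0.26, adjusted p = 0.0285) passed, as 1.54% of all genes did. With the motor neuron score, chosen after seeing the data, the same 2 genes passed (Grin1 adjusted p = 0.0307, Grik5 0.0442). In cord 35 members had at least 50 counts in every library. Their 95% intervals of the day-6 to day-1 ratio ran from 0.644 at the lowest bound (Grin2c) to 1.3965 at the highest (Grm8). Wider limits held for rarer members such as Gabrd and Gabrg3.

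**Figure D4:**
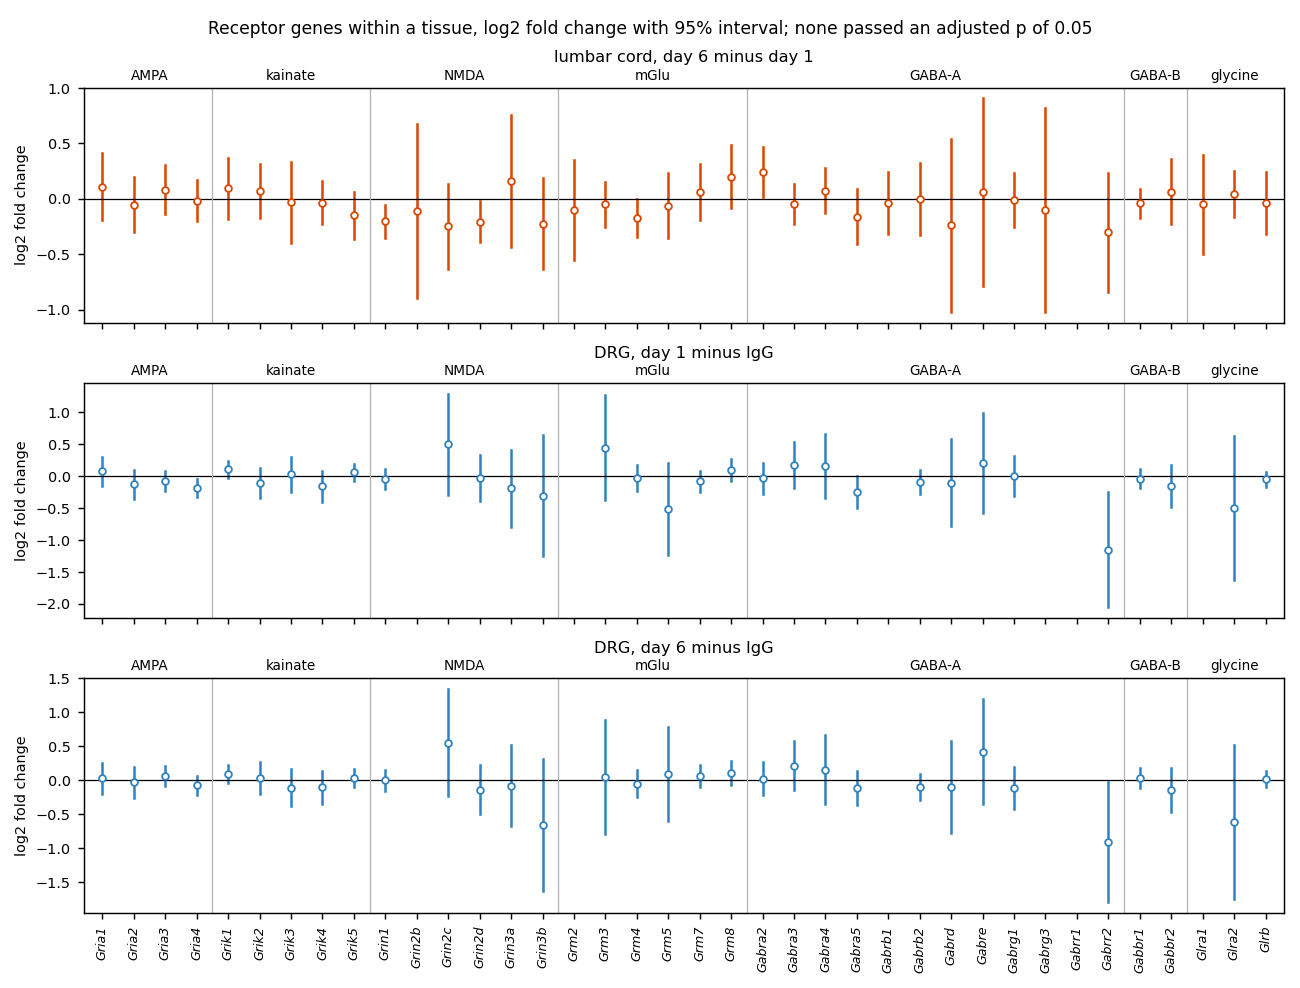
Log2 fold change with 95% interval for the tested genes among 38 receptor genes in cord (day 6 minus day 1) and DRG (day 1 and day 6 minus IgG); the 3 panels have different vertical scales. In cord the interval of Grin1 lies below 0 at -0.20, and in DRG the widest intervals belong to rare genes such as Gabrr2 at -1.15.

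The receptor genes, like all genes, varied among the 3 cord day-6 libraries. Of 36 members with a mean of at least 50 counts, library 2 held the highest of the 6 cord values in 9 and the lowest in 10. Of all genes, 24.3% and 20.01% were highest and lowest there, so the 9 are close to the share of all genes. Whether members differ from all genes in these counts was not tested. Library 1 also held the highest value in 9 members, against 16.9% of all genes. Among the highest in library 2 were Gabrb1, Gabrb2, Glrb, Gria3, Gria4, Grin2c, Grin3b and Grm8. Lowest in library 2 were Gabbr2, Gria1, Gria2, Grik3, Grik5, Grin1, Grin2d, Grm2, Grm4 and Grm5. Gria1 had 240.5 and 232 CPM in day-6 libraries 1 and 3 and 177 CPM in library 2, and Glrb had 387 and 333 CPM against 472 CPM. Day-6 library 3 held the lowest value in 14 of the 36 members, among them Gabra3, Gabra5, Gabrb2, Gabrg1, Gria4 and Glrb, and in 24.3% of all genes.

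The markers of these libraries differed as well. The 7 motor neuron markers summed to 399 CPM in day-6 library 2, to 254 and 233 CPM in libraries 1 and 3, and to 297 to 348 CPM on day 1, and the 8 Schwann cell markers to 979 CPM against 11831 and 10683 CPM on day 6 and 832 to 4973 CPM on day 1. Without library 2, Grin2c (-0.47 ± 0.10, edgeR adjusted p = 0.0320) and Gabra5 (-0.30 ± 0.07, adjusted p = 0.0432) were lower on day 6 than on day 1, while 5.36% of all genes passed, and Grin1 was not among them. Grin2c had 27.6, 26.3 and 28.7 CPM on day 1 and 17.6, 29.6 and 21.2 CPM on day 6.

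In DRG, 0 of 35 receptor genes differed on day 1 from IgG by edgeR, where 0.168% of 15461 genes passed, 0 on day 6 from IgG, where 0% passed, and 0 on day 6 from day 1, where 0.103% passed. DESeq2 and limma voom also called 0 in each. With an unadjusted p under 0.05 there were 4, 1 and 0 members, or 11.4%, 2.86% and 0% of them, against 7.4%, 3.6% and 6.83% of all genes. DRG IgG library 1 stood apart in that 31.5% of its reads fell in no gene, against 13.1 to 13.8% in the other DRG libraries, and without it 0 members passed in both comparisons with IgG. The comparisons with IgG share the IgG libraries, and those with day 1 the day-1 libraries. Among the 5 members with the smallest p on day 1 were Gria4, Gabrr2, Gabra5 and Grik1. Gria4 had 81.8, 74.5 and 74.4 CPM in the IgG libraries and 66.2, 73.5 and 63.6 CPM on day 1, which did not overlap, at -0.18 ± 0.06 (edgeR adjusted p = 0.517). Gabra5 had 6.05, 7.21 and 6.46 CPM with IgG and 5.65, 5.75 and 5.18 CPM on day 1 (-0.25, adjusted p = 0.669). Grik1 was at 0.11 ± 0.06 (adjusted p = 0.739).

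Gabrr2, a rho subunit, had the largest difference in DRG and also one of the lowest levels. Its libraries held 1.28, 1.66 and 0.65 CPM with IgG, 0.62, 0.49 and 0.48 CPM on day 1 and 0.35, 0.90 and 0.66 CPM on day 6. The log2 differences from IgG were -1.15 ± 0.41 on day 1 (edgeR adjusted p = 0.521) and -0.91 ± 0.40 on day 6 (adjusted p = 0.995). On day 6 against IgG the next 4 by p were Grik1 (0.10), Grin2c (0.56), Grin3b (-0.65) and Gabra3 (0.22), all at an edgeR adjusted p of 0.995. On day 6 against day 1 the first 5 included Gria3 (0.14), Grm7 (0.14), Grm5 (0.61) and Gria4 (0.11), with edgeR adjusted p from 0.747 to 0.786. A total of 26 members had at least 50 counts in every DRG library. Their 95% intervals of the ratio to IgG ran from 0.578 to 1.45 on day 1 and from 0.625 to 1.49 on day 6. Skeletal muscle markers ranged widely between DRG libraries, and with their score as a covariate 0 members passed in the 3 comparisons.

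In the 4 pathway lists 0 genes passed in cord or DRG by edgeR. In the order given above, 0 of 10, 2 of 11, 3 of 26 and 1 of 10 had an unadjusted p under 0.05 in cord, against 9.7% of all genes. In DRG on day 1 against IgG these were 3 of 11, 3 of 8, 1 of 26 and 0 of 10, against 7.4% of all genes. Other tools were not run on these lists. The smallest adjusted p was that of Slc1a3, the glutamate transporter of glia, in DRG on day 1 (log2 fold change 0.50 ± 0.09, edgeR adjusted p = 0.0785). In cord the smallest p was that of Shank3, a postsynaptic scaffold gene, at -0.39 ± 0.09 (edgeR adjusted p = 0.463).

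The change from day 1 to day 6 was not shown to differ between cord and DRG for any of 41 receptor genes (edgeR interaction term), and 0.00623% of 16044 genes passed. DESeq2 and limma voom called 0 as well. At an unadjusted p under 0.05 there were 4 (9.76%, against 10.2% of all genes): Grin2b, with 0 counts in the DRG day-6 libraries, Grin1 (-0.28 ± 0.10, adjusted p = 0.429), Grm5 (-0.69 ± 0.29, adjusted p = 0.468) and Gabra5 (-0.33 ± 0.15, adjusted p = 0.483). Without cord day-6 library 2, Gabra5 passed (-0.46 ± 0.11, edgeR adjusted p = 0.0491), as did 2.69% of all genes.

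Paw skin held little receptor transcript. Of the 42 members 19 had at least 10 counts in 3 or more paw libraries, and paw CPM were scaled separately. Per kilobase Gabbr1 and Grik5 had the highest levels there, at means of 2.84 and 2.77 CPM per kb. Gabbr1 lay between 9.79 and 18.8 CPM and Grik5 between 4.43 and 13.3 CPM. Of 18 members tested, 0 passed on day 1 against IgG, where 0.00654% of 15287 genes did, 0 on day 6 against IgG (0.706%) and 0 on day 6 against day 1 (1.03%), by edgeR, DESeq2 or limma voom. Their unadjusted p was under 0.05 in 1, 1 and 3 members (5.56%, 5.56% and 16.7%), against 10.6%, 9.74% and 14% of all genes. They included Grik4 on day 1 against IgG (log2 1.33 ± 0.44, adjusted p = 0.399), Gabra3 on day 6 against IgG (0.66 ± 0.24, adjusted p = 0.358), and, on day 6 against day 1, Grik4 (-1.28) and Grm4 (0.89) (edgeR adjusted p = 0.243 and 0.338). Paw IgG library 1 held the lowest value of all 6 members with a mean of at least 50 counts (Gabbr1, Gabra3, Gria3, Grik3, Grik5 and Grin2d), and of 27.6% of all genes, with the highest of 25.7%. That library stood apart as a whole: its skeletal muscle markers summed to 231 CPM, while the lowest of the remaining paw libraries had 5548 CPM and the highest 38456 CPM. Without it 0 members passed in both paw comparisons with IgG.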

How the data were processed

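The members and gene lists were chosen with earlier results of these data known. The deposited values are raw read counts per gene symbol, made by the authors with bcl2fastq, TopHat2 and HTSeq on build mm9, per the submitters' processing notes; the sources used here do not name the versions, the annotation, the strand option or how reads shared by several genes were treated. Per the labels' protocols, libraries were stranded and sequenced as 50 bp single reads. The 5 summary lines per file, among them reads assigned to no gene (of the reads counted in genes, in no gene or as ambiguous, 31.5% in DRG IgG library 1, 13.1 to 13.8% in the other DRG libraries and 14.8 to 17.3% in cord), were removed from totals and tests.

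Genes were tested with the quasi-likelihood F test of edgeR 4.0.16 (R 4.3.3, TMM factors, default count filter, robust dispersions), 2-sided, within each tissue and over the 15 DRG and cord libraries, with Benjamini-Hochberg adjustment over all genes tested and a threshold of 0.05. Errors are SE. The samples are numbered but not said to be separate animals, so a p-value covers only sample-to-sample spread, which may be technical. Of 24 replicate pairs 0 were identical. Replicate numbers were not used to pair the samples, except in the block alternative. Lengths came from GENCODE M21, for 42 of 42 members. Some members' values are not reported here. Values are given for members past the threshold in a tissue or, with none, the 5 smallest p, for the highest and most different member of each family, and at most 6 pathway genes. Of 248 list symbols 245 were found. Alternatives used DESeq2 1.42.0, limma 3.58.1, other scalings, filters and covariates, a replicate block, and each library left out. Intervals and floors cover counting and sample error only. In data simulated for cord day 6 against day 1, edgeR recovered 86 of 100 genes changed 2-fold, with 9 false calls among 194. For DRG day 1 against IgG it recovered 89 of 100 (14 false among 199), and for paw day 1 against IgG 51 of 100 (14 false among 157). The changed genes were drawn from those with a mean of at least 1 CPM, so rarer members are not covered. Counts were drawn independently for each gene, without shifts of a whole library.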

Additional observations from a re-analysis of the deposited data

How the results depend on the processing

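Of 157 counts of receptor genes recomputed under an alternative, 153 stayed within 1.5 times the reported count, 125 of them at 0 as reported. The 4 others concern day 6 in cord: the reported 0 became 2 with the pan-neuronal covariate, 2 with the motor neuron covariate (chosen after seeing the data), and between 0 and 2 with 1 library left out, and for the difference in change between cord and DRG between 0 and 1. The cause was not tested; leaving out a library also changes which genes are tested. Leaving out each library gave 34 to 37 calls for cord against DRG on day 1 and 34 to 36 on day 6, and 0 in every DRG and paw comparison. The signs of 3 genes that did not pass turned for cord against DRG. On day 6 Gabbr1 was at 0.011 with upper-quartile scaling, and Gabrd at 0.00030 and Grin3a at 0.017 with limma voom. Leaving out each library, Gabbr1 ran from -0.047 to 0.00012 on day 6 (above 0 without cord library 3), Gabrd from -0.27 to 0.28 (above 0 without DRG library 1 and, at 0.0026, without cord library 1), Grin3a from -0.27 to 0.097 (above 0 without DRG library 3), and Gabrd on day 1 from -0.095 (without cord library 1) to 0.40. With the replicate number as a block, 0 receptor genes passed within a tissue, and 36 and 35 between cord and DRG on day 1 and day 6; on day 1 Grik3 then passed (adjusted p = 0.0364). Of 39 correlations between samples with the same number, 10 were over 0.1 (range -0.734 to 0.411), and 9 samples correlated best with their own number. Among these were all 3 numbers of DRG day 1 against cord day 1 (r = 0.17, 0.0526 and 0.173), so pairing is not settled there. Depth limits the rarest members: Glra1 and Grin2b had 0 counts in whole DRG groups.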
